A study of Mus musculus with 12 samples.

Results

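The Ly6 surface protein genes analysed here were Ly6a, Ly6c1, Ly6c2, Ly6e and Ly6g, read from every probe set of the deposited exon array table that names only one of these 5 genes. That gave 26 of the 318760 probe sets with a single gene symbol: 4 for Ly6a, 2 for Ly6c1, 6 for Ly6c2, 10 for Ly6e and 4 for Ly6g. All 26 passed the filter on dim probe sets, and the 5 genes were among 20711 with a gene value. Another 9 probe sets name 2 Ly6 genes at once (2 for Ly6a with Ly6c2, 7 for Ly6c1 with Ly6c2) and were kept apart.

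Ly6 proteins are small surface proteins built on a three-finger fold and held in the outer leaflet of the membrane by a glycosylphosphatidylinositol (GPI) anchor. In mouse marrow they serve as stage markers. Ly6a encodes Sca-1, which marks haematopoietic stem cells and early progenitors and is also found on activated T cells. Ly6c1 and Ly6c2 encode the Ly6C antigen of monocytes, Ly6g the Ly6G antigen of granulocytes, and Ly6e a more broadly made protein that is induced by interferon. Their genes lie side by side on chromosome 15 and are alike in sequence, so short probes can bind more than one transcript.

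The study put 3 vector pairs into bone marrow progenitor cells and asked how Meis1, a TALE homeobox partner of Hox proteins, changes cells that already carry Hoxa9. The cells came from female C57B/6 mice, 12 weeks old and treated with 5-FU (5-fluorouracil, which depletes cycling marrow cells), and were transduced with MSCV retroviral constructs and grown in DMEM with 15% FCS, IL3, SCF and IL6. All groups carried Hoxa9. HOXA9+MEIS1 cells had full-length Meis1 as well, HOXA9+MDHD cells had Meis1 with its homeodomain deleted, and HOXA9+MIY cells had the empty MIY vector. Each condition had 4 arrays, 2 at week 4 and 2 at week 3 of culture, with 1 array per sample. The series text speaks of 4 independent experiments per condition, and the labels do not say whether week 4 and week 3 arrays share cultures, so p-values measure only the spread between these samples. Expression was driven from a retroviral vector in bulk cultures, and the labels name no sort after transduction.

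Values below are log2 gene values, a median polish over the RMA values of a gene's probe sets, and differences are fitted log2 differences ± SE from limma, which used condition and week on the full set of 12 arrays. "Called" means that the Benjamini-Hochberg adjusted p, computed over the 20711 genes, was under 0.05. Levels are set side by side within a gene only, since probe sets differ in how brightly they bind. Array medians lay between 6.26 and 6.30 and pairwise correlations between 0.967 and 0.985. Meis1 stood at 9.73 ± 0.091 (SD) in HOXA9+MEIS1, 9.44 ± 0.285 in HOXA9+MDHD and 6.85 ± 0.081 in HOXA9+MIY (n = 4 each), and Hoxa9 was not called in any comparison of conditions.

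The upstream windows of Ly6c1, Ly6c2 and Ly6g, the 3 members with an entry in the table of windows, are shown because their start regions are close copies of each other. The windows are RefSeq's for mouse build GRCm38.p6, from 250 bases before to 50 after an annotated start, 300 bases each. They cover chr15:75048788-75049087 on the minus strand for Ly6c1, chr15:75111922-75112221 on the minus strand for Ly6c2 and chr15:75155011-75155310 on the plus strand for Ly6g. For these genes the table lists 2 overlapping windows each, and the first is shown. Ly6a and Ly6e have no entry in it. Capitals mark matches to the motifs named after the sequences.
Ly6c1: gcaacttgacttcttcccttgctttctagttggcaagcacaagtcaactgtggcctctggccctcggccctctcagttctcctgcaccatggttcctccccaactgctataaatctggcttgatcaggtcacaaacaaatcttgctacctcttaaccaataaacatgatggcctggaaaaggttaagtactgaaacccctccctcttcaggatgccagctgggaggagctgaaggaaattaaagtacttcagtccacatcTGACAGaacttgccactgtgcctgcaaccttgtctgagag
Ly6c2: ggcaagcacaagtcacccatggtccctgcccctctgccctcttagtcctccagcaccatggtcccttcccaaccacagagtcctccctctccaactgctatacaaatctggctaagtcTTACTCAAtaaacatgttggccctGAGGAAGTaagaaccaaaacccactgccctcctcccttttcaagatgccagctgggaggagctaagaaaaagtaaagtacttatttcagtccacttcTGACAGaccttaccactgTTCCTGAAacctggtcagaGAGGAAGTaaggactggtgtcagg
Ly6g: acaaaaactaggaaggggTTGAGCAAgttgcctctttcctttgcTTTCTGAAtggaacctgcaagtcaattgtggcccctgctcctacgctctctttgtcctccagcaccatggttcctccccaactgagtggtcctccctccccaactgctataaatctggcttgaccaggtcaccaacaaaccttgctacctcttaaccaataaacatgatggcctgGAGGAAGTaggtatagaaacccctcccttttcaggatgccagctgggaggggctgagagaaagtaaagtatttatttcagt

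Aligned pair by pair, the Ly6c1 and Ly6g windows were identical at 84.5% of 252 aligned bases, the Ly6c2 and Ly6g windows at 80.7% of 223, and the Ly6c1 and Ly6c2 windows at 78.2% of 266. Short patterns were searched on both strands: TGACAG (the core that Meis proteins bind), TGATNNAT (Hox with Pbx), GAGGAAGT (PU.1, an Ets factor of myeloid cells), GAAANNGAA (from the interferon-stimulated response element), TTCNNNGAA (GAS, bound by Stat dimers) and TTNNGNAA (C/EBP factors). No match below overlapped another. TGACAG was found once in the Ly6c1 window, at bases 261 to 266 counted from its first base, and once in the Ly6c2 window, at bases 240 to 245. This pattern is present in 19.2% of all 32851 windows of the same length. GAGGAAGT was found at bases 143 to 150 and 277 to 284 of the Ly6c2 window and at bases 220 to 227 of the Ly6g window, against 3.2% of all windows. The second windows, not shown, hold it once for Ly6c1, at bases 124 to 131, and 2 times each for Ly6c2 and Ly6g. As the windows overlap, the Ly6c2 matches are the same sites as in its first window. So is the Ly6g match at bases 152 to 159. TTNNGNAA was found 2 times in the Ly6c2 and 2 times in the Ly6g window, against 40.7% of all windows. The Hox with Pbx pattern (8.85% of all windows), the interferon pattern (8.56%) and GAS (8.3%) had no match in the 3 windows shown. These matches describe letters in a window and show no binding.

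Full-length Meis1 went with lower Ly6a, Ly6c1 and Ly6g on top of Hoxa9, with a small and uncertain difference in Ly6c2 and none detected in Ly6e. For Ly6c1 the difference was not called once the probe sets it shares with Ly6c2 were counted in. In HOXA9+MEIS1 minus HOXA9+MIY, 4 of the 5 members were called, all lower, where 10.8% of all genes tested were called and 5.55% were called lower. Ranked by the size of the change, Ly6a was 26th of 20711 genes, Ly6c1 140th and Ly6g 179th, while Ly6c2 was 1547th and Ly6e 14046th.

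**Figure D1:**
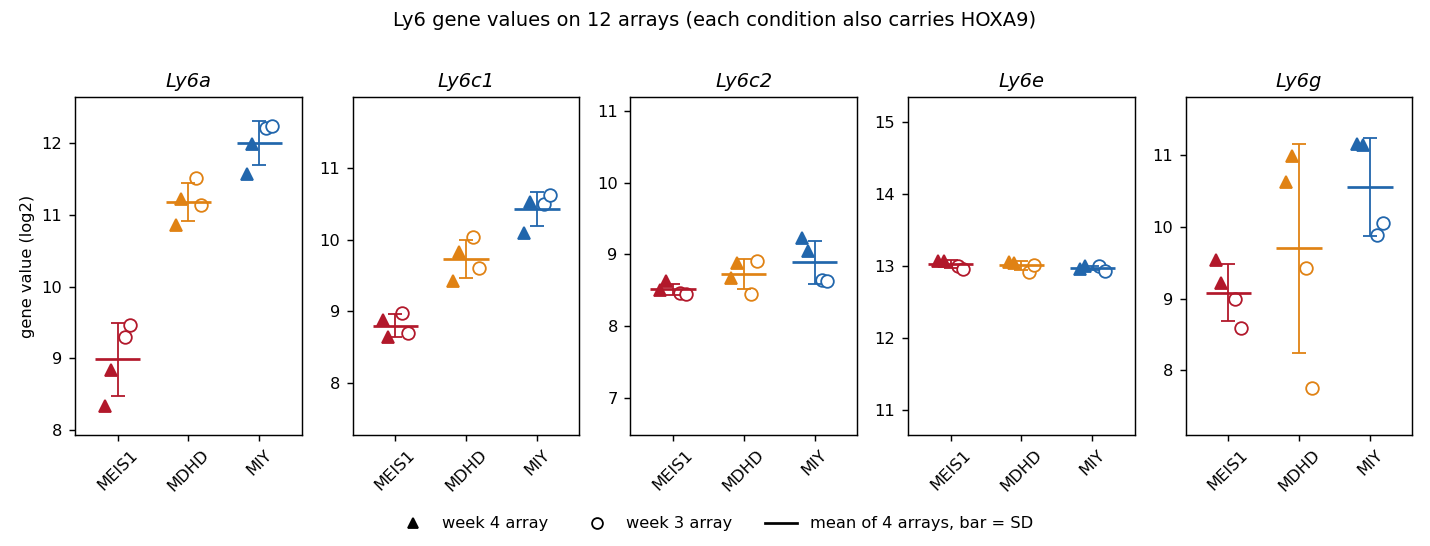
Log2 gene values of the 5 Ly6 genes on each of the 12 arrays, by condition (horizontal axis, HOXA9 omitted from the names) and week (triangles for week 4, open circles for week 3). Horizontal lines are means of 4 arrays and bars are SD, and every panel spans the same number of log2 units. Ly6a lies between 8.33 and 9.46 in HOXA9+MEIS1, below the other conditions on every array, while Ly6e lies between 12.92 and 13.07 on all 12 arrays.

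Ly6a, the Sca-1 gene, had the widest separation of the members. In HOXA9+MEIS1 its log2 value was 8.33 and 8.84 at week 4 and 9.30 and 9.46 at week 3. HOXA9+MDHD arrays read 10.86 and 11.21 at week 4 and 11.51 and 11.14 at week 3, and HOXA9+MIY arrays 11.57 and 11.98 at week 4 and 12.21 and 12.23 at week 3. No 2 conditions overlapped: every HOXA9+MEIS1 array lay below every HOXA9+MDHD array, and every HOXA9+MDHD array below every HOXA9+MIY array. Ly6a fell by 3.01 ± 0.147 on the log2 scale in HOXA9+MEIS1 relative to HOXA9+MIY, an 8.06-fold difference (limma, adjusted p = 2.9e-07). The difference within week 4 was -3.19 ± 0.195 (adjusted p = 4.09e-05) and that within week 3 -2.84 ± 0.195 (adjusted p = 6.29e-05). Since the cultures were measured in bulk, fewer cells with Sca-1 and less Ly6a RNA per cell cannot be told apart, here and for the other members.

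Ly6c1, one of the Ly6C genes, was the second member by size. HOXA9+MEIS1 arrays stood at 8.88 and 8.64 at week 4 and 8.98 and 8.69 at week 3. The HOXA9+MDHD values were 9.43 and 9.83 at week 4 and 10.04 and 9.60 at week 3, and the HOXA9+MIY values 10.09 and 10.52 at week 4 and 10.49 and 10.62 at week 3. Again no condition overlapped another, with HOXA9+MEIS1 lowest and HOXA9+MIY highest. Ly6c1 fell by 1.63 ± 0.129 in HOXA9+MEIS1 relative to HOXA9+MIY (3.09-fold, limma, adjusted p = 8.06e-06). The value rests on 2 probe sets that differed in size, and it depends on leaving out the probe sets Ly6c1 shares with Ly6c2: with those counted in, an alternative chosen after seeing the data, it was -0.06 (adjusted p = 0.391).

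Ly6g, the granulocyte gene, moved both with Meis1 and with time. HOXA9+MEIS1 arrays read 9.53 and 9.21 at week 4 and 8.99 and 8.59 at week 3. HOXA9+MDHD arrays read 10.63 and 10.99 at week 4 and 9.43 and 7.75 at week 3, and HOXA9+MIY arrays 11.15 and 11.13 at week 4 and 9.88 and 10.06 at week 3. Every HOXA9+MEIS1 array lay below every HOXA9+MIY array, whereas HOXA9+MDHD overlapped both, with its second week 3 array the lowest of all 12. Ly6g fell by 1.47 ± 0.354 in HOXA9+MEIS1 relative to HOXA9+MIY (2.78-fold, limma, adjusted p = 0.0177). The call was lost without HOXA9+MIY week 3 array 2 (-1.41, adjusted p = 0.0529), HOXA9+MEIS1 week 4 array 1 (-1.39, adjusted p = 0.0558) or HOXA9+MEIS1 week 4 array 2 (-1.27, adjusted p = 0.066). It was -1.77 ± 0.405 within week 4 (adjusted p = 0.0282) and -1.18 ± 0.405 within week 3 (adjusted p = 0.181). Taken within week 4, the members called were Ly6a, Ly6c1, Ly6c2 and Ly6g, where 6.75% of all genes were called, and within week 3 Ly6a and Ly6c1, where 4.03% were.

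Ly6c2, the second Ly6C gene, differed little. Its values in HOXA9+MEIS1 were 8.50 and 8.63 at week 4 and 8.47 and 8.45 at week 3. HOXA9+MDHD had 8.68 and 8.89 at week 4 and 8.45 and 8.91 at week 3, and HOXA9+MIY had 9.22 and 9.05 at week 4 and 8.65 and 8.63 at week 3. The highest HOXA9+MEIS1 array and the lowest HOXA9+MIY array were nearly level, and HOXA9+MDHD overlapped both. The fitted difference between HOXA9+MEIS1 and HOXA9+MIY was -0.38 ± 0.111 (1.3-fold, limma, adjusted p = 0.0482), at the edge of the threshold. It was kept in 3 of the 12 fits that left out 1 array, over which it ran from -0.43 to -0.29 with adjusted p between 0.0139 and 0.15. Leaving out any 1 of the 4 HOXA9+MIY arrays, any 1 of the 4 HOXA9+MEIS1 arrays or HOXA9+MDHD week 4 array 2 ended the call.

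Ly6e was bright and level on all arrays. Its values, here to 3 decimals, were 13.072 and 13.065 at week 4 and 12.995 and 12.955 at week 3 in HOXA9+MEIS1. HOXA9+MDHD had 13.059 and 13.042 at week 4 and 12.921 and 13.009 at week 3, and HOXA9+MIY had 12.958 and 13.001 at week 4 and 12.993 and 12.934 at week 3. The conditions overlapped throughout. The difference between HOXA9+MEIS1 and HOXA9+MIY was 0.05 ± 0.030 (limma, adjusted p = 0.378), with a 95% confidence interval from -0.01 to 0.11.

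Meis1 without its homeodomain went with smaller differences in Ly6a and Ly6c1, and these 2 were the only members called. In HOXA9+MDHD minus HOXA9+MIY, 2 of the 5 members were called, both lower, where 1.91% of all genes were called and 1% were called lower. Ly6a fell by 0.82 ± 0.147 (1.76-fold, limma, adjusted p = 0.0166), and Ly6c1 fell by 0.70 ± 0.129 (1.63-fold, adjusted p = 0.0181). Ly6c2 differed by -0.16 ± 0.111 (adjusted p = 0.614) and Ly6e by 0.04 ± 0.030 (adjusted p = 0.679). Ly6g differed by -0.86 ± 0.354 (adjusted p = 0.31), and by -0.37 (adjusted p = 0.384) without HOXA9+MDHD week 3 array 2. The call of Ly6a was lost without HOXA9+MDHD week 4 array 1 or without HOXA9+MIY week 3 array 1, week 3 array 2 or week 4 array 2, with values between -0.83 and -0.73 and adjusted p between 0.0513 and 0.0574. Leaving out the same 4 arrays, or HOXA9+MDHD week 3 array 2, ended the call of Ly6c1 at values between -0.71 and -0.62 and adjusted p between 0.0526 and 0.0663. Within week 4, where 0.126% of all genes were called, Ly6a differed by -0.74 ± 0.195 and Ly6c1 by -0.67 ± 0.195, and within week 3, where 0.222% were, by -0.90 ± 0.195 and -0.73 ± 0.195. None of these was called with the spread of all 12 arrays, and Ly6a at week 3 was called when only the 6 arrays of week 3 were fitted (adjusted p = 0.0283).

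Cells with full-length Meis1 and cells with Meis1 lacking its homeodomain also differed in Ly6a and Ly6c1. In HOXA9+MEIS1 minus HOXA9+MDHD, 2 of the 5 members were called, both lower, where 4.36% of all genes were called and 2.11% were called lower. Ly6a fell by 2.19 ± 0.147 (4.58-fold, limma, adjusted p = 5.43e-06), the 19th largest change of 20711 genes, and with the shared probe sets counted in it differed by -1.24 (adjusted p = 5.22e-06). Ly6c1 fell by 0.92 ± 0.129 (1.9-fold, adjusted p = 0.00135). Ly6c2 differed by -0.22 ± 0.111 (adjusted p = 0.388) and Ly6e by 0.01 ± 0.030 (adjusted p = 0.904). For Ly6g the difference was -0.62 ± 0.354 (adjusted p = 0.472), and 1 array decided it: without HOXA9+MDHD week 3 array 2 it was -1.10 (adjusted p = 0.00416), and with only the 6 arrays of week 4 it was -1.44 (adjusted p = 0.00615). With the spread of all arrays, Ly6g was not called within week 4 (-1.44 ± 0.405, limma, adjusted p = 0.137). Nor was Ly6g called within week 3, where its difference was 0.20 ± 0.405 (adjusted p = 0.91). Within week 4, where 1.73% of all genes were called, Ly6a was called (-2.45 ± 0.195) and Ly6c1 was not (-0.87 ± 0.195, adjusted p = 0.0617). Within week 3, where 1.95% were, Ly6a (-1.94 ± 0.195) and Ly6c1 (-0.98 ± 0.195) were called. With the shared probe sets counted in, Ly6c1 differed by -0.04 in HOXA9+MDHD minus HOXA9+MIY and by -0.02 in HOXA9+MEIS1 minus HOXA9+MDHD, neither called. The comparisons share their arrays, so the values of a gene in them are not separate evidence.

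**Figure D2:**
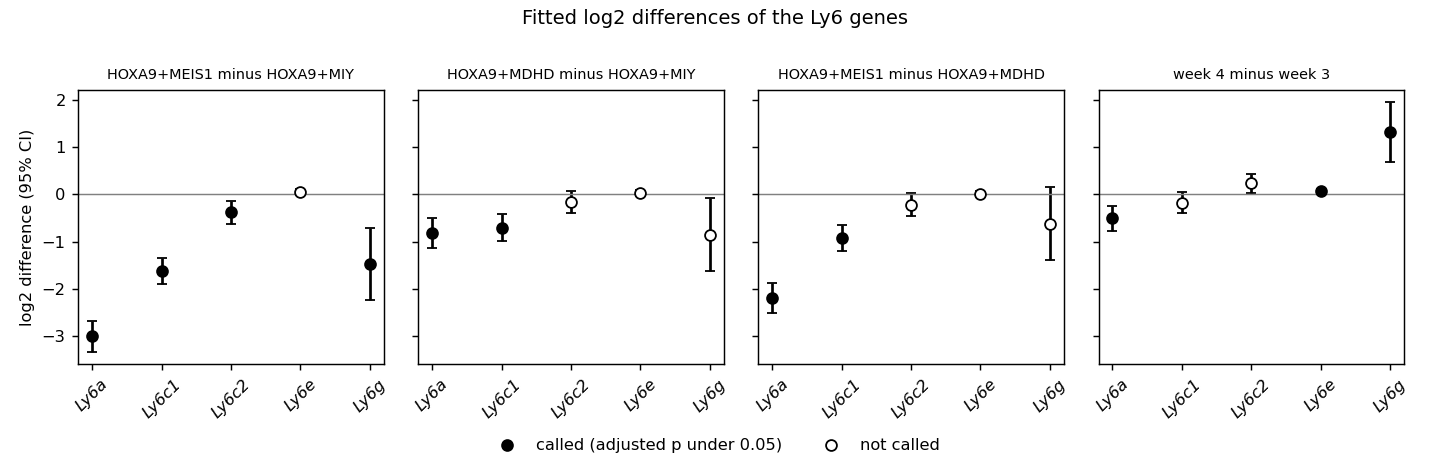
Fitted log2 differences of the 5 Ly6 genes (points) with 95% confidence intervals (bars) in the 4 comparisons, from limma over 12 arrays. Filled points were called at an adjusted p under 0.05. Ly6a runs from -3.01 in HOXA9+MEIS1 minus HOXA9+MIY to -0.51 in week 4 minus week 3, and Ly6g is the member with the widest intervals and the largest difference between the weeks, 1.32.

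Between the weeks the members went different ways. In week 4 minus week 3, 3 of the 5 members were called (Ly6g and Ly6e higher, Ly6a lower), where 39.8% of all genes were called, 11.7% higher and 28.1% lower. That split moved with the scaling: 2428 genes were higher and 5814 lower on the values as deposited, against 3811 higher and 4434 lower after quantile normalization, 3655 and 5072 after centring on the median, and 4259 and 4059 after cyclic loess. Ly6g rose by 1.32 ± 0.289 at week 4 (2.5-fold, limma, adjusted p = 0.00258), the 42nd largest change of 20711 genes, and stayed called with 1.31 to 1.54 under the other settings tried and 1.00 to 1.47 when single arrays were left out. The same difference was 0.58 ± 0.405 in HOXA9+MEIS1 (adjusted p = 0.357), where 28.1% of all genes were called between the weeks. It was 2.22 ± 0.405 in HOXA9+MDHD (adjusted p = 0.00481), where 19.2% were, and 1.17 ± 0.405 in HOXA9+MIY (adjusted p = 0.0687), where 20.7% were. Week 3 of HOXA9+MDHD held the lowest array, and without it the difference over all conditions was 1.00 (adjusted p = 0.000117).

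Ly6a fell by 0.51 ± 0.120 at week 4 (1.42-fold, limma, adjusted p = 0.00428), and differed by -0.32 after cyclic loess, where the call was lost (adjusted p = 0.0594). By condition the Ly6a difference was called in HOXA9+MEIS1 only (-0.79 ± 0.195, adjusted p = 0.0115). It was -0.28 ± 0.195 in HOXA9+MDHD (adjusted p = 0.382) and -0.45 ± 0.195 in HOXA9+MIY (adjusted p = 0.146). The difference for Ly6e was 0.07 ± 0.024 (1.05-fold, adjusted p = 0.0494), and its call was lost in 9 of 12 fits that left out 1 array (0.05 to 0.08, adjusted p up to 0.116). Only the fits without HOXA9+MIY week 3 array 1, HOXA9+MIY week 4 array 1 or HOXA9+MDHD week 3 array 2 kept it. Under the 9 other settings it lay between 0.07 and 0.19 and was called in 5, with adjusted p from 0.00103 (mean of the probe sets) to 0.213 (no trend). Ly6c2 differed by 0.23 ± 0.090 (adjusted p = 0.0569) and was called without HOXA9+MEIS1 week 4 array 1, HOXA9+MDHD week 3 array 2 or HOXA9+MDHD week 4 array 1 (adjusted p between 0.00577 and 0.0495), as well as after quantile normalization (0.38, adjusted p = 0.00516). By condition Ly6c2 was called in HOXA9+MIY (0.50 ± 0.138, adjusted p = 0.0285). It was not called in HOXA9+MEIS1 (0.11 ± 0.138, adjusted p = 0.652) or HOXA9+MDHD (0.10 ± 0.138, adjusted p = 0.705). Ly6c1 differed by -0.17 ± 0.106 (adjusted p = 0.225) and by 0.04 after cyclic loess, so its direction was not settled.

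Whether a difference between conditions changed with time was tested by interaction terms. No gene (0%), and so none of the 5 members, was called in any of the 3 tests with limma. In HOXA9+MEIS1 minus HOXA9+MIY, 1343 genes (6.48%) had an unadjusted p under 0.05. In HOXA9+MDHD minus HOXA9+MIY 997 genes (4.81%) did, and in HOXA9+MEIS1 minus HOXA9+MDHD 1547 genes (7.47%). Of the members, only Ly6g in HOXA9+MEIS1 minus HOXA9+MDHD was among them: its difference at week 4 less that at week 3 was -1.64 ± 0.573 (unadjusted p = 0.0168, adjusted p = 0.64). It rests on the 2 HOXA9+MDHD arrays of week 3, which were 9.43 and 7.75. Without the first of these the interaction was -2.48, and without the second, the lowest of all 12 arrays, it was -0.80. In either fit that condition and week has 1 array, assumed to vary like the other groups. Over all 12 fits without 1 array the interaction lay between -2.48 and -0.80. For HOXA9+MDHD minus HOXA9+MIY, the Ly6g interaction was 1.05 ± 0.573 (adjusted p = 0.998). It was 1.88 without HOXA9+MDHD week 3 array 1 and 0.21 without HOXA9+MDHD week 3 array 2, under the same assumption.

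The single probe sets, tested over all 318760 with limma and no filter, showed how far the probe sets of a gene moved together. In HOXA9+MEIS1 minus HOXA9+MIY, 11 of 26 were called, where 6.7% of all probe sets were called and 3.5% were called lower. They were all 4 of Ly6a, both of Ly6c1, 1 of 6 of Ly6c2, none of 10 of Ly6e and all 4 of Ly6g, and all 11 were lower. In HOXA9+MDHD minus HOXA9+MIY, 5 of 26 were called, where 1.22% of all were called and 0.534% were called lower: the 4 of Ly6a and 1 of Ly6c1. HOXA9+MEIS1 minus HOXA9+MDHD had 4 of 26, where 2.78% of all were called and 1.53% were called lower: 3 of Ly6a and 1 of Ly6c1. Without HOXA9+MDHD week 3 array 2 that count was 9, and the share of all probe sets called in that fit is not given here.

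Within Ly6a, 3 probe sets changed alike and 1 did not. Probe set 5356171, the exception, read 11.14 and 11.13 at week 4 and 11.17 and 10.95 at week 3 in HOXA9+MEIS1, against 11.79 and 11.82 at week 4 and 11.91 and 11.84 at week 3 in HOXA9+MIY. Probe set 4789109 read 8.98 and 9.48 at week 4 and 9.97 and 9.70 at week 3 in HOXA9+MEIS1, against 12.30 and 12.60 at week 4 and 12.76 and 12.82 at week 3 in HOXA9+MIY. Neither overlapped between the conditions, yet their differences were far apart: probe set 5356171 differed by -0.74 ± 0.092 and probe set 4789109 by -3.09 ± 0.125. The other two, 5419219 and 5413818, differed by -3.17 ± 0.145 and -3.36 ± 0.180. Between the weeks the same probe set stood apart, with 0.06 ± 0.075 (adjusted p = 0.588) for 5356171 and differences of -0.80 to -0.43, all called, for the others.

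Ly6c1 split in the same way. Its probe set 5597222 read 7.86 and 7.81 at week 4 and 8.54 and 8.19 at week 3 in HOXA9+MEIS1, against 10.23 and 10.60 at week 4 and 10.92 and 10.91 at week 3 in HOXA9+MIY. Probe set 5430994 read 9.91 and 9.48 at week 4 and 9.43 and 9.20 at week 3 in HOXA9+MEIS1, against 9.95 and 10.44 at week 4 and 10.07 and 10.32 at week 3 in HOXA9+MIY. The arrays were well apart on the first probe set and close on the second. The first fell by 2.56 ± 0.138 (limma, adjusted p = 1.47e-08) and the second by 0.69 ± 0.137 (adjusted p = 0.00407), so the gene difference of -1.63 lies midway between them and describes neither.

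For Ly6g the 4 probe sets were lower by like amounts, between -1.59 and -1.37, and higher at week 4 by 1.22 to 1.41, all called. The 6 probe sets of Ly6c2 lay between -0.61 and -0.30 in HOXA9+MEIS1 minus HOXA9+MIY, and only 4623746, at -0.61 ± 0.089 (limma, adjusted p = 0.000278), was called. Those of Ly6e lay between -0.01 and 0.08. Between the weeks 12 of 26 were called, where 30.6% of all probe sets were, and for Ly6c2 the 3 called went both ways, 2 at 0.52 and 1 at -0.30. Ly6e had 1 called, 5156302, at 1.01 ± 0.164 (limma, adjusted p = 0.00017), while its other 9 differed by 0.01 to 0.28.

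**Figure D3:**
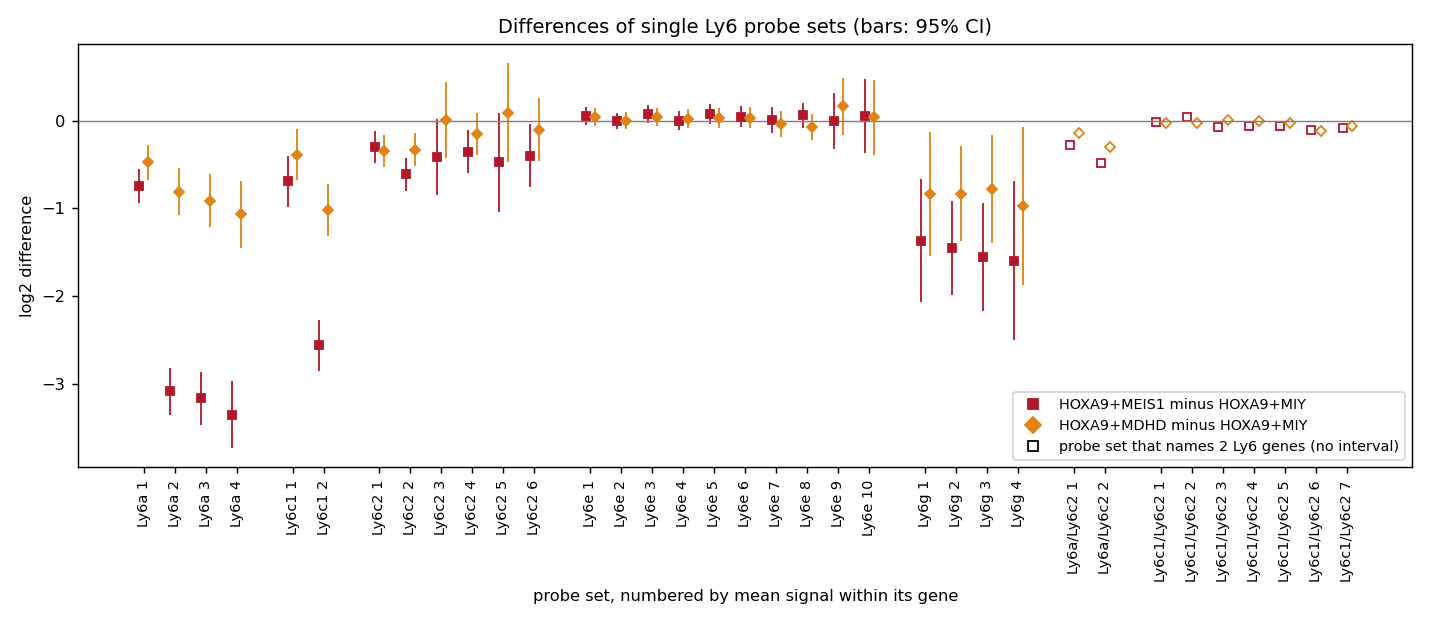
Log2 differences of each Ly6 probe set (horizontal axis, numbered by mean signal within its gene) in HOXA9+MEIS1 minus HOXA9+MIY (squares) and HOXA9+MDHD minus HOXA9+MIY (diamonds), with 95% confidence intervals as bars. Open symbols are probe sets that name 2 Ly6 genes, drawn without an interval. In HOXA9+MEIS1, 3 of the 4 Ly6a probe sets lie below -3 and the first at -0.74, and the 7 shared by Ly6c1 and Ly6c2 lie between -0.11 and 0.04.

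The 9 probe sets that name 2 Ly6 genes had high readings and small differences. The 7 for Ly6c1 with Ly6c2 had mean values of 13.18 to 14.32 in HOXA9+MEIS1, 13.20 to 14.27 in HOXA9+MDHD and 13.26 to 14.30 in HOXA9+MIY. Their differences between HOXA9+MEIS1 and HOXA9+MIY were -0.11 to 0.04, while those of the 2 for Ly6a with Ly6c2 were -0.28 and -0.48. Signal matching either Ly6C gene was thus high in every condition, and it cannot be split between Ly6c1 and Ly6c2. The highest value of any probe set on these arrays was 14.93, and whether readings so near it compress differences, for these probe sets or for Ly6e, was not tested. With these probe sets added to each gene they name, the Ly6a difference between HOXA9+MEIS1 and HOXA9+MIY was -1.81 (limma, adjusted p = 1.87e-07) and that between HOXA9+MDHD and HOXA9+MIY -0.57 (adjusted p = 0.00617). In HOXA9+MEIS1 minus HOXA9+MIY, it was then -0.15 for Ly6c2 (adjusted p = 0.0133) and, as given above, -0.06 for Ly6c1. Values of Ly6c1 and Ly6c2 are uncertain, as for any near-identical pair of genes.

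Along the chromosome the lower genes lay next to each other. Of the 57 genes that RefSeq lists on chromosome 15 from 500 kb before the first member to 500 kb after the last, 25 other than the members had a gene value. In HOXA9+MEIS1 minus HOXA9+MIY 4 of these 25 were called, all lower, with a median over the 25 of -0.03 against -0.01 over all genes. Of all genes, 10.8% were called and 5.55% were called lower. The 4 were Ly6f (-1.93 ± 0.219, limma, adjusted p = 0.000117), I830127L07Rik, named Ly6a2 in RefSeq (-1.61 ± 0.160, adjusted p = 4.46e-05), Ly6i (-1.20 ± 0.122, adjusted p = 5.23e-05) and 9030619P08Rik, a transcribed pseudogene (-0.54 ± 0.143, adjusted p = 0.0279). In RefSeq's order Ly6e comes first of the members, followed among genes with a value by Ly6i, Ly6a, Ly6c1, Ly6c2, Ly6a2, Ly6g, Ly6f and 9030619P08Rik. On the outer side of Ly6e, Ly6m (0.00 ± 0.094), Ly6k (0.00 ± 0.083) and Ly6d (-0.01 ± 0.070) were not called, nor was Ly6h (-0.03 ± 0.093) on the far side of 9030619P08Rik. In HOXA9+MDHD minus HOXA9+MIY, where 1.91% of all genes were called, only Ly6i was called among the 25 (-0.74 ± 0.122, adjusted p = 0.0104). These neighbours are alike in sequence to the members, and how much of their signal came from Ly6a or Ly6c1 transcripts was not tested.

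**Figure D4:**
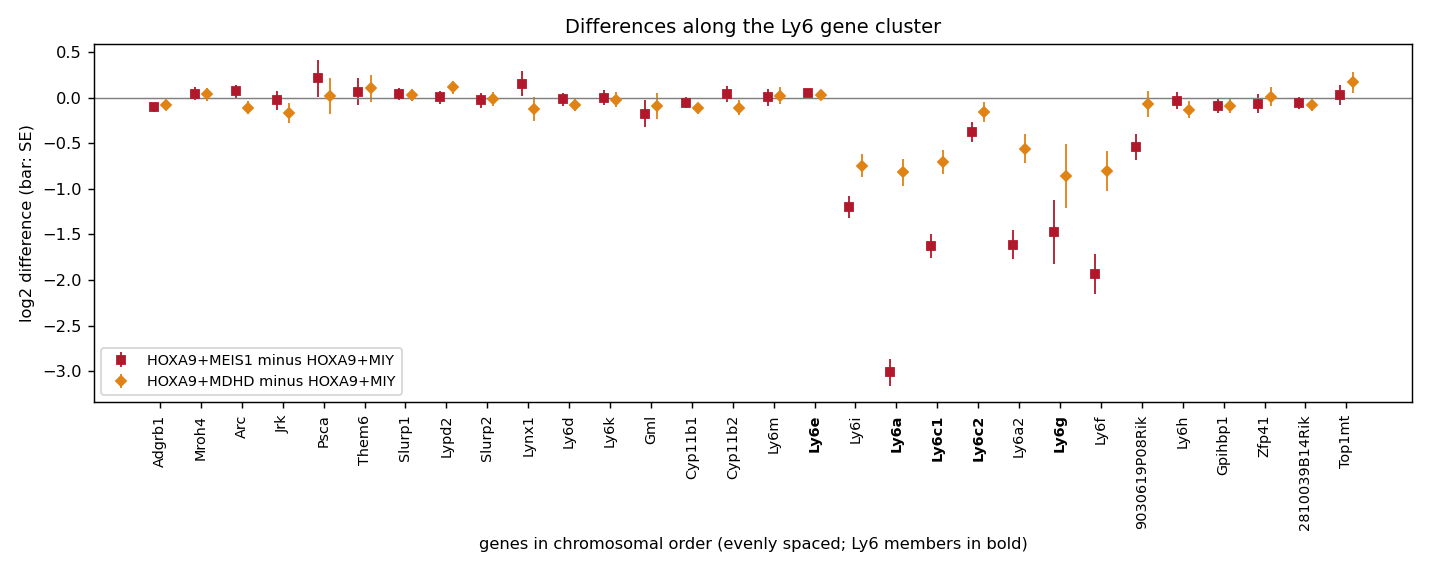
Log2 differences of the genes with a value around the Ly6 cluster, in chromosomal order and evenly spaced, in HOXA9+MEIS1 minus HOXA9+MIY (squares) and HOXA9+MDHD minus HOXA9+MIY (diamonds), with SE as bars. Members are in bold. The 8 genes from Ly6i to 9030619P08Rik lie between -3.01 and -0.38 in HOXA9+MEIS1, and the genes outside them between -0.17 and 0.21.

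Elsewhere in the Ly6/uPAR superfamily, whose members share the three-finger fold, the direction was mixed. Of 33 other family genes tested, the Ly6 neighbours included, 2 were higher and 5 lower in HOXA9+MEIS1 minus HOXA9+MIY, with a median of -0.03 against -0.01 over all genes. In that comparison 10.8% of all genes were called and 5.55% were called lower. The 2 higher genes were Lypd6 (2.14 ± 0.270, limma, adjusted p = 0.000235) and Lypd6b (1.31 ± 0.093, adjusted p = 3.74e-06), a pair of family members known as modulators of Wnt signalling and nicotinic receptors. Outside the cluster the lower gene was Ly6g5b (-0.40 ± 0.107, adjusted p = 0.0319). The urokinase receptor gene Plaur differed by -0.42 ± 0.125 (adjusted p = 0.0528).

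Genes for the machinery that makes the GPI anchor were called about as often as genes in general. Of 30 genes of anchor synthesis and attachment, 4 were higher and 0 lower in HOXA9+MEIS1 minus HOXA9+MIY (median -0.03), a share near the 10.8% of all genes called, among them Pigf (0.47 ± 0.077, limma, adjusted p = 0.00168) and Pigp (0.28 ± 0.058, adjusted p = 0.00711). Of 23 other GPI-anchored surface genes of leukocytes, 2 were higher and 4 lower (median -0.02), where 5.55% of all genes were called lower. Bst1, an ADP-ribosyl cyclase of myeloid cells, differed by -3.18 ± 0.328 (adjusted p = 5.76e-05), Cd177, a neutrophil antigen, by -2.70 ± 0.286 (adjusted p = 6.82e-05), and Cd14, the lipopolysaccharide co-receptor, by -0.95 ± 0.124 (adjusted p = 0.000324). Cd177 is also on the list of late stage neutrophil genes below, and Cd14 on that of classical monocyte genes.

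Genes of the interferon response, which induces Ly6a and Ly6e in many mouse cells, were called in both directions. Of 29, 2 were higher and 4 lower in HOXA9+MEIS1 minus HOXA9+MIY, with a median of -0.07, where 10.8% of all genes were called. The largest change was that of Ifit2, an antiviral gene, at -1.07 ± 0.128 (limma, adjusted p = 0.00016), whose mean in HOXA9+MEIS1 lay under the filter for dim probe sets. Oas1a differed by -0.68 ± 0.132 (limma, adjusted p = 0.00509) and Rsad2, which encodes the antiviral enzyme viperin, by 0.66 ± 0.194 (adjusted p = 0.0495). Of 9 genes for interferon receptors and Jak-Stat proteins, 1 was called, Socs3, a feedback inhibitor (-0.79 ± 0.106, adjusted p = 0.000385).

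Markers of maturing myeloid cells were mostly called lower in HOXA9+MEIS1 relative to HOXA9+MIY, as were Ly6a, Ly6c1 and Ly6g. Ly6c2 differed little and Ly6e was level. Of all genes, 5.55% were called lower in that comparison. Of 18 late stage neutrophil genes, 0 were higher and 16 lower in HOXA9+MEIS1 minus HOXA9+MIY, with a median of -2.45. The mean level of this list ran from 7.51 to 7.95 over the HOXA9+MEIS1 arrays, from 8.32 to 9.75 over the HOXA9+MDHD arrays and from 9.66 to 10.41 over the HOXA9+MIY arrays. S100a9, a calprotectin subunit, fell by 4.09 ± 0.453 (limma, adjusted p = 9.62e-05). Of 17 classical monocyte genes, 1 was higher and 13 lower (median -1.06), with list means of 8.60 to 8.92 in HOXA9+MEIS1, 9.49 to 10.16 in HOXA9+MDHD and 10.00 to 10.18 in HOXA9+MIY. Csf1r, the receptor for macrophage colony-stimulating factor, differed by -2.99 ± 0.179 (adjusted p = 1.01e-06) and the protease gene Ctss by -3.46 ± 0.180 (adjusted p = 3.8e-07). In HOXA9+MEIS1 minus HOXA9+MDHD, 10 neutrophil genes were lower and 0 higher, and 10 monocyte genes were lower and 1 higher, where 2.11% of all genes were called lower. In HOXA9+MDHD minus HOXA9+MIY, 8 neutrophil genes were lower and 0 higher, and 3 monocyte genes were lower and 1 higher, where 1% of all genes were called lower. Between the weeks 6 neutrophil genes were higher and 0 lower (median 0.45), and 3 monocyte genes were higher and 1 lower (median 0.125). Of all genes, 11.7% were called higher and 28.1% lower. Ly6g was higher at week 4, while Ly6a was lower. The part of these cell types in the Ly6 differences was not tested.

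Stem and early progenitor genes, the class to which Sca-1 is usually counted, included more called higher than called lower. Of 19 such genes, 9 were higher and 1 lower in HOXA9+MEIS1 minus HOXA9+MIY (median 0.35), with list means of 8.75 to 8.93 in HOXA9+MEIS1, 8.53 to 8.87 in HOXA9+MDHD and 8.22 to 8.30 in HOXA9+MIY. In HOXA9+MDHD minus HOXA9+MIY 7 were higher and 0 lower (median 0.51). In HOXA9+MEIS1 minus HOXA9+MDHD, where Ly6a fell by 2.19, 1 was higher and 1 lower (median 0.06). Of all genes, 10.8% were called in the first of these comparisons, 1.91% in the second and 4.36% in the third. The list holds Meis1 itself, which is also carried by the vectors. Flt3, a receptor kinase of early progenitors, rose by 3.17 ± 0.172 (limma, adjusted p = 4.75e-07), and the lower gene was Prom1 (-1.69 ± 0.248, adjusted p = 0.000719). The lists for other cells had few genes called in HOXA9+MEIS1 minus HOXA9+MIY, where 10.8% of all genes were called. Stroma and endothelium had 2 higher and 1 lower of 16, T and NK cells 0 and 1 of 14, and B lymphoid cells 0 and 1 of 10. Dendritic and plasmacytoid cells had 1 and 1 of 15, mast cells and basophils 1 and 0 of 11, eosinophils 0 and 1 of 6, and erythroid cells 1 and 0 of 9. With lists so short, these counts cannot be told from the share over all genes.

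The genes whose values over the 12 arrays ran most like each member's were found among about 16675 genes with at least 3 probe sets, by Pearson correlation given as a description. The 12 points share conditions and weeks. For Ly6a they were Gpr137b (0.98), the macrophage gene Mpeg1 (0.97), Picalm (0.97), Clec12a (0.97) and Cybb, the phagocyte oxidase subunit (0.96). For Ly6c1 they were AI607873 (0.96), Ly6a (0.95), Ly6i (0.95), Csf2ra, a receptor chain for GM-CSF (0.94), and Ctss (0.94). Ly6g ran closest to Braf (0.96), Cpd (0.95), Ypel5 (0.95), Ankrd44 (0.95) and Rin3 (0.95). Ly6c2 ran closest to Refbp2, N4bp1, Magef1, Gpr107 and Ikbke (0.92 to 0.94), and Ly6e to Slc25a24, Tnfsf9, Med18, Gng2 and Pgam1 (0.92).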

How the data were processed

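RNA from 12 samples was hybridised to Affymetrix mouse exon arrays. Per the submitters' processing notes, the authors used RMA in Affymetrix Expression Console, with versions not given in the sources used here. What they deposited is on the log2 scale, 1 value for each exon-level probe set and array. The number of arrays limits the precision. Probe sets were named through the platform annotation supplied for them, which can be old: of 1256831, 318760 had 1 symbol, 6684 several and 931387 none.

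The members and the gene lists were chosen with earlier results of these data known. Probe sets with a mean above 6.2592, the 50th percentile, were combined per gene by median polish (at most 50 iterations, 14 genes without convergence), giving 20711 genes. Limma 3.58.1 in R 4.3.3 fitted condition and week over 12 arrays (lmFit, eBayes with trend, two-sided, 8 residual and 4.1 prior degrees of freedom), and a model with interactions tested and gave values within a week. Probe sets were fitted alone without a filter. On simulated data for HOXA9+MEIS1 minus HOXA9+MIY, over 20711 genes, 94% of changes of 1 log2 unit were recovered, 76.1% of those of 0.5 and 100% of those of 2. These shares are averages over randomly drawn genes with independent noise. They do not hold for a single member with a wider spread, such as Ly6g (SE 0.354). Intervals are 95% confidence intervals. Tables, alignments and plots were made with Python 3.11.15, pandas, Biopython and matplotlib.

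Named genes were the 5 members, Hoxa9 and Meis1, up to 3 called genes of each list with the largest change in HOXA9+MEIS1 minus HOXA9+MIY, the called neighbours of the cluster, and the 5 genes most like each member. Lypd6b, Ly6g5b, Plaur, Ly6d, Ly6h, Ly6k and Ly6m were named after their values were seen. Alternatives were the filter, the gene summary, 3 normalizations, the covariates, the arrays used, the replicate block, the prior, each array left out, and, chosen after seeing the data, the shared probe sets and the alternatives for interactions and single probe sets.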

Additional observations from a re-analysis of the deposited data

How the results depend on the processing

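Ly6a in HOXA9+MEIS1 minus HOXA9+MIY kept its direction and its call under all 13 other settings (-3.19 to -1.81) and all 12 fits without 1 array (-3.10 to -2.86); Ly6c1 did so in 12 of 13 and 12 of 12, the exception being the shared probe sets. Counts of members called, 4 in HOXA9+MEIS1 minus HOXA9+MIY, 2 in HOXA9+MDHD minus HOXA9+MIY and 2 in HOXA9+MEIS1 minus HOXA9+MDHD, became 2, 0 and 2 with no week term, 2, 1 and 2 with week 3 arrays only (fewer samples), and 4, 0 and 2 with week 4 arrays only. With only the arrays of the groups compared 1 was called in HOXA9+MDHD minus HOXA9+MIY, and with shared probe sets 1 in each of the last 2 comparisons. Without 1 array these counts ran from 2 to 4, from 0 to 2 and from 2 to 3, and for the weeks from 2 to 4. All genes called numbered 904, 37 and 295 with no week term, 919, 240 and 393 with week 3 only, 855, 11 and 226 with week 4 only, and 162 and 540 in the last 2 comparisons with only the arrays compared. Without 1 array they ran from 1634 to 2557, from 140 to 990 (990 without HOXA9+MDHD week 4 array 2) and from 608 to 1032, and for the weeks from 7541 to 8473. Member probe sets called numbered 7 and 0 in the first 2 comparisons with no week term, 7 in the first with week 3 only, 0 in the second and 8 in the third with week 4 only, 1 in the second with no trend, and 21 between the weeks after centring on the median. Without 1 array they ran from 9 to 12, 4 to 6, 4 to 9 and, for the weeks, 10 to 16. The share of all probe sets called in each of these fits is not given here, so these probe set counts cannot be set against it. Directions turned for Ly6c1 between the weeks after cyclic loess (0.0375), for Ly6c2 in HOXA9+MDHD minus HOXA9+MIY with week 3 only (0.0389), for Ly6g in HOXA9+MEIS1 minus HOXA9+MDHD with week 3 only (0.20), and for Ly6e in that comparison without HOXA9+MDHD week 3 array 1 (over all 12 fits without 1 array, -0.0065 to 0.0268). Arrays with the same number did not deviate together (correlations over genes of array 1 minus array 2 between conditions of -0.112 to 0.133). Between week 3 and week 4 of a condition these correlations were -0.0181 in HOXA9+MEIS1, 0.1355 in HOXA9+MDHD and -0.0676 in HOXA9+MIY. The replicate block gave adjusted p = 0.068 for Ly6c2 in HOXA9+MEIS1 minus HOXA9+MIY, 0.042 for Ly6c2 and 0.0912 for Ly6e between the weeks, and changed no other call of a member. Where no cause is given above, the cause was not tested.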
